A study of Mus musculus with 6 samples.

Results

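The mitochondrial respiratory chain subunits described here are 39 nuclear genes of complexes I to IV, chosen by name as a fixed list: 24 of complex I, 4 of complex II, 5 of complex III and 6 of complex IV. Of these, 38 had a probe set with a single gene symbol on the array, out of 18193 genes measured that way; the remaining one, Ndufs6, had none and was not analysed here. The values come from lung cells of 4-month-old female mice of a Bl6/129 mixed background, with 3 arrays from mice labelled Bmi1 wild-type and 3 from mice labelled Bmi1 mutant, whose genotype is given as Bmi1 null. Live cells without CD31 or CD45 at their surface had been collected by flow cytometry, a gate meant to remove endothelial and hematopoietic cells, and were not cultured. The sources used here name neither the allele nor the part of Bmi1 it removes. They call the arrays biological replicates without saying if mice were pooled, so p-values cover only the variation among these 6 samples.

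The respiratory chain carries electrons from NADH, through complex I, and from succinate, through complex II, to coenzyme Q, then through complex III and cytochrome c to complex IV, where oxygen is reduced. Complexes I, III and IV pump protons across the inner mitochondrial membrane, and ATP synthase uses the gradient. Most subunits are encoded in the nucleus and a few core ones in mitochondrial DNA, and the factors NRF1 and GABP and the coactivator PGC-1 alpha are known to drive the nuclear set. Bmi1 is a Polycomb protein that helps to silence genes, and its loss has been linked to impaired mitochondrial function in other tissues. The comparison asks whether the RNA of the chain differed between the genotypes.

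No measured subunit of the respiratory chain passed the test between the genotypes, and the differences were small. Of the 38 measured subunits, limma called 0 at an adjusted p under 0.05, and 0 reached an unadjusted p under 0.05. Over all genes, 0.923% passed the first rule (0.412% higher and 0.511% lower in mutant) and 14.5% the other (7.51% higher and 7.04% lower). The median log2 difference of the 38, mutant minus wild type on the log2(signal + 16) scale, was -0.0021, against 0.0059 over all genes, with 19 above 0 and 19 below (50.7% of all genes lay above 0). Their differences ran from -0.50 to 0.29, and 0 of them exceeded 0.5 in size. Of all genes 21.5% did, and of the 4901 genes at least as bright as the dimmest subunit 13.4% did. The median size of a difference, without its sign, was 0.082 for the subunits, 0.24 for all genes and 0.18 for those 4901 genes.

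**Figure D1:**
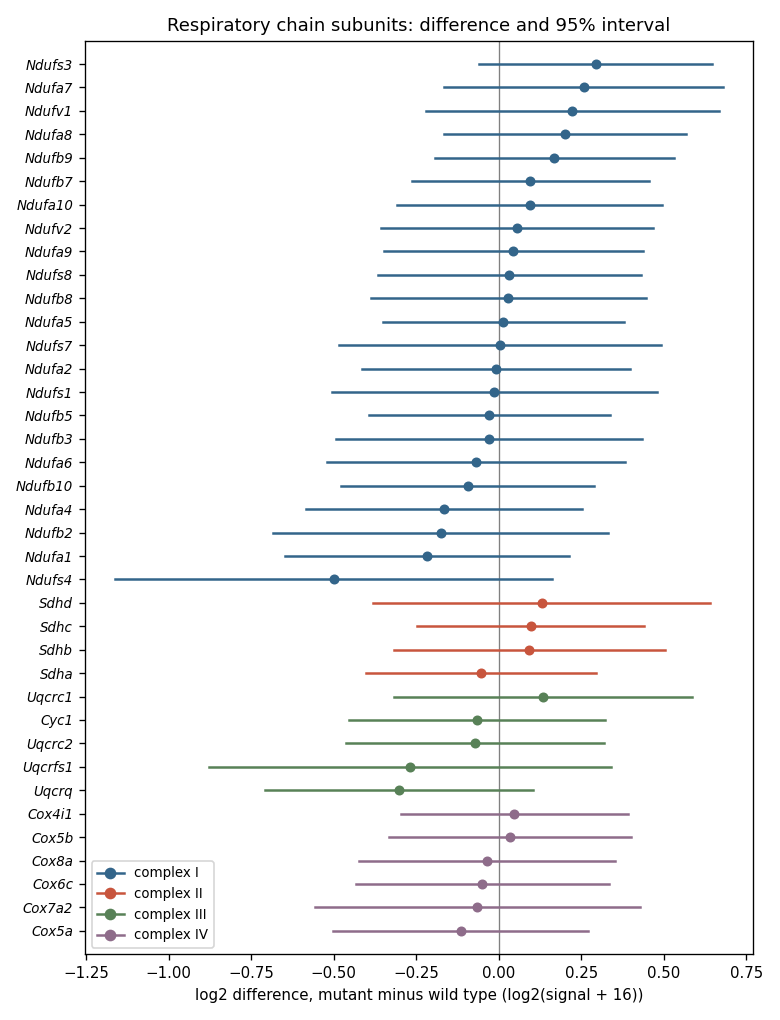
Log2 difference, mutant minus wild type, of each of the 38 measured subunits (point) with its 95% interval from limma (line), coloured by complex; the x axis is on the log2(signal + 16) scale. All 38 intervals include 0, and the widest is that of Ndufs4, from -1.16 to 0.16.

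A missed threshold does not show that levels were equal, so the intervals give the sizes that these arrays leave room for. The 95% interval of the difference lay within a log2 of 1 on either side of 0 for 37 of the 38 subunits, and within 0.5 for 20. The exception at the wider bound was Ndufs4. Over all genes the corresponding counts were 11532 and 2045 of 18193. Over the genes at least as bright as the dimmest subunit they were 4137 and 1193 of 4901. On the linear scale, the mean signal in the mutant-labelled arrays was between 0.735 and 1.23 times that in wild type.

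Before single genes are described, 2 facts about the arrays bear on them. Bmi1 itself did not read lower in mutant at either of its probe sets. The brighter one read 996, 980 and 1164 in wild type and 1276, 1498 and 1565 in mutant (log2 difference 0.46, limma adjusted p = 0.282). It lay higher without overlap, as 10.4% of all genes did. The other read 545, 535 and 684 against 637, 535 and 824, a log2 difference of 0.16. Since the deleted part is not stated, both probe sets may lie outside it, so every direction rests on the labels. Mutant replicate 2 gave the lowest signal of the 6 arrays for 22 of the 38 subunits (57.9%), and was lowest for 21.8% of all genes. Mutant replicate 1 gave the highest for 18 of 38 (47.4%), against 16.6% of all genes. The mean log2 level of the 38 was 11.68, 11.78 and 11.72 in the wild-type arrays and 11.85, 11.56 and 11.76 in mutant, in replicate order, so the mutant arrays spanned the wild-type range from both sides. Without mutant replicate 2 the median difference was 0.086 and the differences ran from -0.23 to 0.34, still with 0 called.

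**Figure D2:**
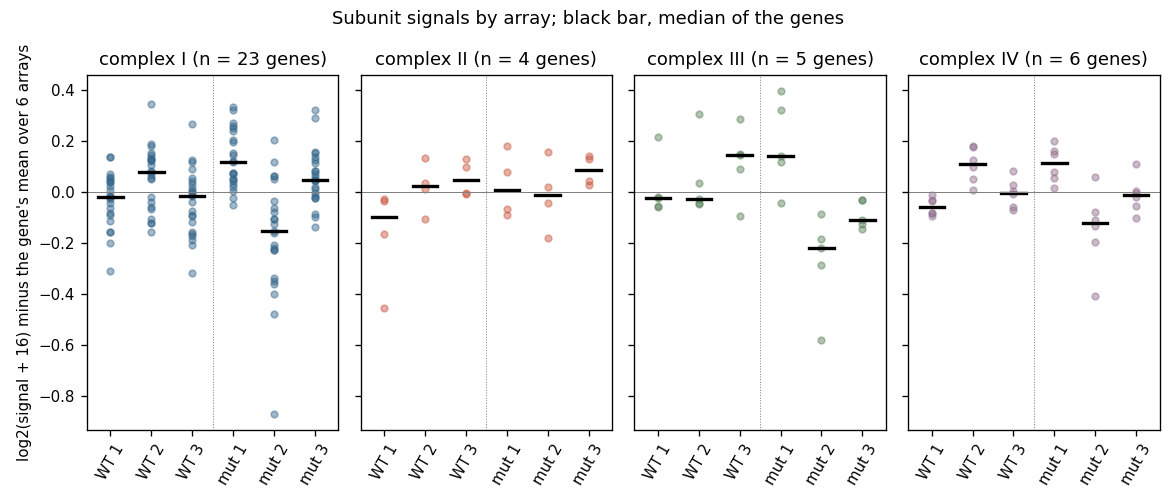
Level of each subunit in each array (points), as log2(signal + 16) minus the gene's mean over the 6 arrays, in 1 panel per complex, with the median of the genes as a black bar; WT is wild type and mut is Bmi1 mutant, replicates 1 to 3. In complexes I, III and IV the bar is lowest in mutant replicate 2, which held the lowest signal of the 6 arrays for 12 of 23, 4 of 5 and 5 of 6 genes.

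The upstream regions of some members share a feature that the choice of genes did not use, and they are shown because NRF1 is among the regulators measured below. RefSeq promoter windows (GRCm38.p6, 250 bases before to 50 after the start) were at hand for 30 of the 39 members. An NRF1 motif (GCGC, any base, T, then GCGC again, searched on both strands) occurred in 7 of the 30 (23.3%), against 4.60% of all 32851 windows and 8.61% of the 14452 genes on the array that have a window. They are Ndufa5, Ndufa6, Ndufa8, Ndufs6, Sdha, Sdhd and Uqcrc1. An ETS motif of the kind GABP binds, CCGGAAG, occurred in 6 of 30 (20.0%), against 8.86% of all windows and 14.98% of those array genes, and the letters TATAAA in 3 (10%), against 13.6% and 11.5%; both were searched on both strands. A match describes the sequence and is not evidence of binding. Stretches that lie wholly before the start are shown 5′ to 3′ on the gene's own strand, with the NRF1 motif in capitals.
Ndufa5, chr6:24527692-24527731, minus strand: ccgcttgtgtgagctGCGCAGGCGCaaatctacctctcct
Ndufa8, chr2:36049344-36049383, minus strand: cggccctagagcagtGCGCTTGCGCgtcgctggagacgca
Sdhd, chr9:50603904-50603943, minus strand: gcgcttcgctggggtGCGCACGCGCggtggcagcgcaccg
Sdha, chr13:74350314-74350353, minus strand: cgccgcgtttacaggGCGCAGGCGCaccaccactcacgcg
Sdha, chr13:74350271-74350310, minus strand: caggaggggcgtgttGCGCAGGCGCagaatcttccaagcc
Sdha held 3 such motifs before its start. The 6 measured genes with the NRF1 motif had a median log2 difference of 0.072, and the 23 measured genes with a window but no such motif 0.0039.

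Complex I, the NADH dehydrogenase and the largest of the complexes, held both ends of the range. Its 23 measured subunits had a median log2 difference of 0.014, with 13 above 0 and 10 below. That median was -0.042 without mutant replicate 1 and 0.11 without mutant replicate 2. Ndufs4, an accessory subunit that stabilizes the NADH-binding arm, read 3016, 3483 and 3303 in wild type and 2884, 1493 and 2831 in the mutant-labelled arrays. The genotypes did not overlap, and mutant replicate 2 stood well below the other mutant arrays. The means were 3267 ± 236 and 2402 ± 788 (SD, n = 3 each). The log2 difference was -0.50 ± 0.28 (SE, limma adjusted p = 0.476). Without mutant replicate 2 the difference was -0.19. Each of the other 3 probe sets of Ndufs4 was also lower in mutant, with log2 differences of -0.67, -0.67 and -0.41 at mean signals of 125, 86.1 and 565. The one at 565 read 584, 572 and 790 against 520, 421 and 503, without overlap. That at 125 read 120, 168 and 187 against 81.6, 89.5 and 105, also without overlap, and mutant replicate 2 was not its lowest array. At 86.1 the genotypes overlapped. Of all probe sets with a mean signal of at least 100, 23.3% did not overlap.

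Ndufs3, a core subunit of the arm that passes electrons to coenzyme Q, lay at the other end. It read 1976, 2022 and 1963 in wild type and 2597, 2279 and 2451 in mutant, without overlap. The log2 difference was 0.29 ± 0.15 (SE, 95% interval -0.060 to 0.65, limma adjusted p = 0.429), the smallest p of any of the 38 subunits. The accessory subunit Ndufb9, of the membrane arm, also lay higher without overlap, at 6473, 7107 and 6842 against 8256, 7531 and 7188, a log2 difference of 0.17 (adjusted p = 0.681). Ndufa1, a small accessory subunit, lay lower without overlap, at 7990.3, 8331 and 8304 against 7882, 5771 and 7720.5, a log2 difference of -0.22 (adjusted p = 0.650), and without mutant replicate 2 the difference was -0.073.

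Those genes and Sdhc of complex II were the subunits whose genotypes did not overlap: 5 of 38 in all, against 20.5% of all genes, with 3 higher, against 10.4%, and 2 lower, against 10.0%. That share is below the background, and with each array centred on its median it was 4 higher and 0 lower. Among the other accessory subunits of complex I, Ndufa7 read 911, 1104 and 1103 in wild type and 1095, 1229 and 1418 in mutant, a log2 difference of 0.26 (limma adjusted p = 0.577), but 3 of its 4 other probe sets lay lower in mutant. Ndufb2 read 1271, 1428 and 1299 against 1444, 894 and 1262, the lowest again in mutant replicate 2. Ndufa5, with the motif shown above, read 5966, 6373 and 5642 against 6317, 5582 and 6268, a log2 difference of 0.014. The probe sets of Ndufa5 and Ndufb2 also disagreed in sign.

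The remaining complex I subunits with discordant probe sets differed little at their brightest one. Ndufa10 read 2937, 2985 and 3160 (wild type) and 3776, 3053 and 2921 (mutant). Ndufb8 read 2329, 2982 and 2680.2 against 2818, 2406 and 2920.3. Ndufs8, a core subunit that holds iron-sulfur clusters, read 2234, 2438 and 1953 against 2253, 2063 and 2447. In all 3 the genotypes overlapped and the log2 differences were 0.094, 0.029 and 0.032. The subunits of the NADH-oxidizing tip, Ndufv1 and Ndufv2, had log2 differences of 0.22 and 0.054, and the large iron-sulfur subunit, Ndufs1, one of -0.013, with limma adjusted p-values of 0.655, 0.926 and 0.985. Ndufa4, first described in complex I and since assigned to complex IV, had a difference of -0.17 (adjusted p = 0.737). One subunit encoded in mitochondrial DNA, ND5 of complex I, was on the array and was added after the values were seen: it read 15838, 18233 and 17338 in wild type and 16547, 17749 and 18874 in mutant, a log2 difference of 0.049 (adjusted p = 0.926).

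Complex II, succinate dehydrogenase, belongs to the citric acid cycle as well, and its 4 subunits differed by -0.054 to 0.13 with a median of 0.095. Sdhc, which with Sdhd anchors the complex in the membrane, read 4264, 4064 and 4353 in wild type and 4621, 4436 and 4506 in mutant, higher without overlap, although the log2 difference was 0.097 ± 0.15 (SE, limma adjusted p = 0.826). At the second probe set of Sdhc the genotypes overlapped, at 1965, 1873 and 1941 against 2426, 1667 and 2247. Sdhd read 3562, 5368 and 5350.2 against 4593, 5462 and 5346, with wild-type replicate 1 well below the rest at this probe set. Without that array its log2 difference went from 0.13 to -0.066 and the median of the complex to -0.016. The other probe set of Sdhd read 2924, 3120 and 2880 against 3096, 2783 and 3518, a log2 difference of 0.068. There wild-type replicate 1 did not stand apart. Sdha, the flavoprotein that oxidizes succinate, read 7851, 8070.2 and 8575 against 7638, 7782 and 8168, a difference of -0.054 (adjusted p = 0.912). Sdhb, the iron-sulfur subunit, differed by 0.093 (adjusted p = 0.865).

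Complex III, which passes electrons from coenzyme Q to cytochrome c, had 4 of 5 subunits below 0 and a median of -0.071, which was 0.011 without mutant replicate 2. Uqcrq, a small subunit near the coenzyme Q site, read 1406, 1172 and 1477 in wild type and 1174, 989 and 1109 in mutant. The groups overlapped by a narrow margin, and the log2 difference was -0.30 ± 0.17 (SE, 95% interval -0.71 to 0.10, limma adjusted p = 0.481). Uqcrfs1, the Rieske iron-sulfur protein, read 1317, 1697 and 1521 against 1714, 910 and 1236, with the lowest and the highest of the 6 arrays both in mutant. Its difference of -0.27 became -0.046 without mutant replicate 2. Uqcrc1, a core protein of the complex, read 1132, 1145 and 1105 against 1560, 1113 and 1093. Its mean lay higher in mutant through replicate 1 alone: the log2 difference was 0.13, and -0.031 without that array. Cyc1, cytochrome c1, differed by -0.065 (adjusted p = 0.903) and the core protein gene Uqcrc2 by -0.071 (adjusted p = 0.894).

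Complex IV, cytochrome c oxidase, showed small differences: its 6 nuclear subunits lay between -0.12 and 0.048, with a median of -0.042. Leaving out mutant replicate 2 gave a median of 0.020, and leaving out wild-type replicate 2 one of 0.023. Cox4i1, the ubiquitous form of the largest nuclear-encoded subunit, read 7794, 8291 and 8263 in wild type and 8334, 8595 and 8231 in mutant, a log2 difference of 0.048 ± 0.15 (SE, 95% interval -0.30 to 0.39, limma adjusted p = 0.922). Cox5a, a subunit on the matrix side, read 6094, 7085 and 6357 against 6595, 5447 and 6011, a difference of -0.12 (adjusted p = 0.815). Cox5b, a zinc-binding subunit, read 7851, 8325 and 7641 against 8905, 7611 and 7915, a difference of 0.034. The small membrane subunits Cox6c, Cox7a2 and Cox8a differed by -0.049, -0.065 and -0.034. For each of these 6 genes the genotypes overlapped, and for 5 of them the lowest array was mutant replicate 2.

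**Figure D3:**
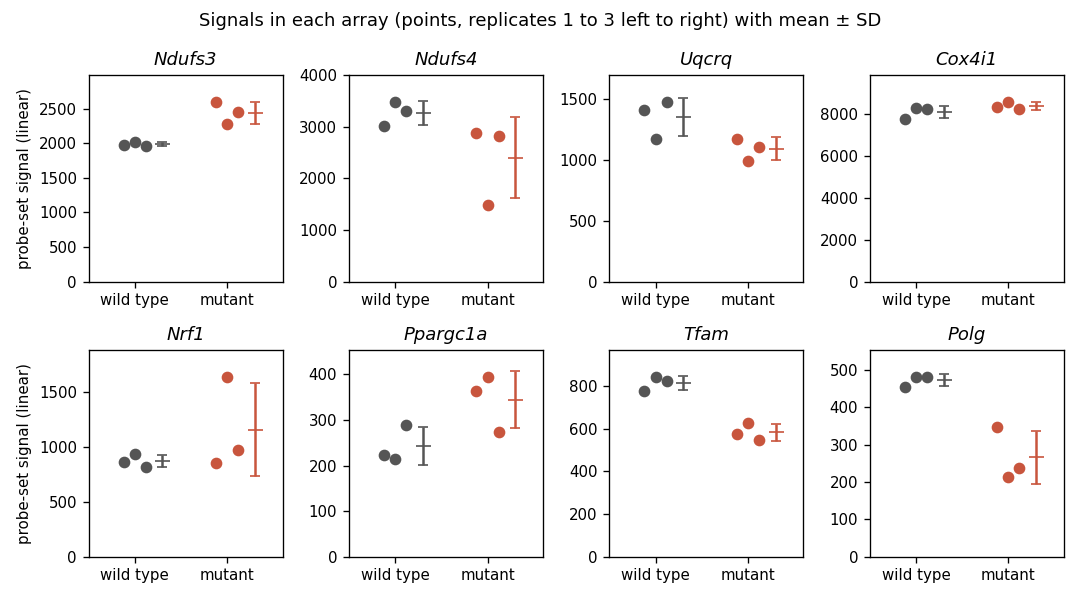
Linear probe-set signals of 4 subunits (top row) and of 4 regulators of mitochondrial gene expression (bottom row) in each array, with the mean ± SD of 3 arrays per genotype beside the points; each axis starts at 0. Ndufs4 and Nrf1 each have a mutant replicate 2 apart from the other arrays, at 1493 and 1638, while Tfam and Polg lie lower in all 3 mutant arrays.

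The 38 subunits had 84 probe sets in all, which gives a further view of the same arrays. Of the 73 with a mean signal of at least 100, 4 lay higher without overlap and 4 lower, against 23.3% of all 20609 such probe sets in either direction. Among 23 genes with more than 1 probe set, 9 had probe sets of both signs, and 4 when dim probe sets were left aside. The probe set used ended in _x_at for 6 genes (Cox5b, Cox8a, Ndufs8, Ndufv1, Sdhc and Sdhd) and in _s_at for 3 (Ndufa2, Sdha and Uqcrq), marks of a design whose probes may also match other transcripts. Signals of different probe sets are not comparable, so the genes are not ranked by level.

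Other lists of mitochondrial and energy genes held 0 called genes as well, against 0.923% of all genes. The 19 measured other subunits of complexes I, III and IV had a median log2 difference of -0.062, with 6 above 0 and 13 below. In them Ndufa3, an accessory complex I subunit, read 3628, 4356 and 3799.6 in wild type and 3424, 2494 and 2839 in mutant, lower without overlap (log2 difference -0.43, limma adjusted p = 0.345), and Uqcr10 of complex III differed by -0.44 (adjusted p = 0.488), by -0.20 without mutant replicate 2 and by -0.0097 with the mean of its probe sets. With that mean, Ndufa3 differed by -0.18. The 17 ATP synthase genes had a median of 0.0004, 9 above 0, and differences between -0.19 and 0.13, with Atp5j2 (-0.19) and Atp5e (-0.17) at the smallest p. The 16 citric acid cycle and pyruvate dehydrogenase genes had a median of 0.010, and Idh3b (-0.40, adjusted p = 0.368) and Ogdh (-0.37, adjusted p = 0.402) lay lower without overlap, although Ogdh differed by -0.062 with the mean of its probe sets.

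Tissue isoforms of complex IV and complex I subunits replace the ubiquitous forms in some cells. All 8 had overlapping groups, where 20.5% of all genes had groups without overlap. Cox4i2, the isoform of Cox4i1 known from lung, read 203, 114 and 113 in wild type and 200.1, 145 and 177 in mutant, a log2 difference of 0.29 (limma adjusted p = 0.670). Ndufa4l2, a hypoxia-inducible relative of Ndufa4, read 182, 127 and 99.0 against 167, 162 and 194, a difference of 0.36 (adjusted p = 0.547). In both, wild-type replicate 1 was as high as the mutant arrays. That replicate also had the highest wild-type mean log2 level of the 12 smooth muscle and pericyte markers, 9.30 against 8.36 and 7.91. In the mutant arrays that level was 9.91, 9.53 and 9.90. The same replicate was the highest wild-type array for endothelial, fibroblast, alveolar type 1 and cardiomyocyte markers, but for none of the other marker lists. The part of any of these cells in the values was not tested. The heart and muscle isoforms Cox6a2, Cox7a1 and Cox8b differed by 0.24, -0.52 and 0.51 and Cox6b2 by -0.19. These values moved when single arrays were left out: Cox8b differed by 0.063 without mutant replicate 1 and 1.00 without mutant replicate 2, Cox7a1 by -0.28 without mutant replicate 2, Cox6a2 by 0.010 without mutant replicate 3 and Cox6b2 by -0.047 without mutant replicate 1. The genes Cox7b2 and Cox8c had mean signals of 2.19 and 45.4, too low to compare.

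Regulators and the machinery of mitochondrial DNA had a median of -0.16, with 7 of 20 above 0. Polg, the catalytic subunit of the mitochondrial DNA polymerase, read 454, 482 and 482 in wild type and 347, 213 and 238 in mutant, a log2 difference of -0.82 ± 0.21 (SE, limma adjusted p = 0.143). Its other probe sets had log2 differences of -1.09 and, for the dimmest, 0.31. Tfam, which packages and transcribes mitochondrial DNA, read 778, 844 and 823 against 575, 624 and 548, a difference of -0.48 ± 0.15 (SE, adjusted p = 0.223). Of the 20 genes, only these 2 lay lower without overlap, against 10.0% of all genes, and 0 lay higher, against 10.4%. They were also the only 2 at an unadjusted limma p under 0.05, of 0.00598 and 0.0164, against 7.04% of all genes on the lower side. Neither passed the adjusted threshold.

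Of the activators of the nuclear set 0 passed the test. Gabpa, the DNA-binding subunit of GABP, had a log2 difference of 0.0023 (limma adjusted p = 0.998). Gabpa, Nrf1, Ppargc1a and Cycs were chosen after their values were seen. Nrf1, the factor of the motif shown above, read 864, 929 and 816 in wild type and 853, 1638 and 973 in mutant, a log2 difference of 0.35 (limma adjusted p = 0.614). Mutant replicates 1 and 3 lay near wild type, and the high value was that of replicate 2, without which the difference was 0.068. Its other 3 probe sets lay below 0, and the mean of all its probe sets gave -0.25. Ppargc1a, which encodes PGC-1 alpha, read 222, 215 and 290.0 against 364, 395 and 274, a difference of 0.48 (adjusted p = 0.359) with overlap in 1 pair of arrays. Cycs, cytochrome c, lay lower without overlap, at 5405, 6099.96 and 5396 against 4895, 3766.5 and 5152, a difference of -0.30 (adjusted p = 0.519), or -0.16 without mutant replicate 2. In the same list of 13 cytochrome c and coenzyme Q genes, with a median of -0.084, Coq7 lay higher without overlap (0.47, adjusted p = 0.322) and Hccs differed by -0.34.

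Mitochondrial ribosomal proteins, which translate the subunits encoded in mitochondrial DNA, had a median of -0.079, with 25 of 70 above 0. Of the 70, 7 lay lower without overlap, against 10.0% of all genes, and 1 higher, against 10.4%. At an unadjusted p under 0.05 were 5 of 70, all lower, against 7.04% of all genes in that direction. Mrps15 read 768, 839 and 960 in wild type and 460, 323 and 580 in mutant (log2 difference -0.92, limma adjusted p = 0.149), and Mrpl9 1607, 1692 and 1647 against 1279.7, 999 and 1102 (-0.55, adjusted p = 0.197). With the mean of probe sets Mrps15 differed by -0.57, and with the dimmest probe set Mrps15 differed by -0.022 and Mrpl9 by -0.076. Mutant replicate 2 was the lowest array for 39 of the 70. The 37 assembly factors had a median of -0.12 with 13 above 0, and Coa3 (-0.39, adjusted p = 0.368) and Foxred1 (0.40, adjusted p = 0.404) had the smallest p. Glycolysis lay on the other side, with 12 of 15 genes above 0 and a median of 0.19, led by the lactate transporter gene Slc16a3 (1.01, adjusted p = 0.365) and Pfkm (0.46, adjusted p = 0.405), and mutant replicate 2 was lowest for 1 of them. The list's mean log2 level was 11.08, 11.27 and 10.92 in the mutant arrays and 10.81, 10.99 and 10.92 in wild type, so mutant replicate 3 lay within the wild-type range. The highest array, mutant replicate 2, also had the highest level of neutrophil markers, whose part was not tested, and without it Slc16a3 differed by 0.59.

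**Figure D4:**
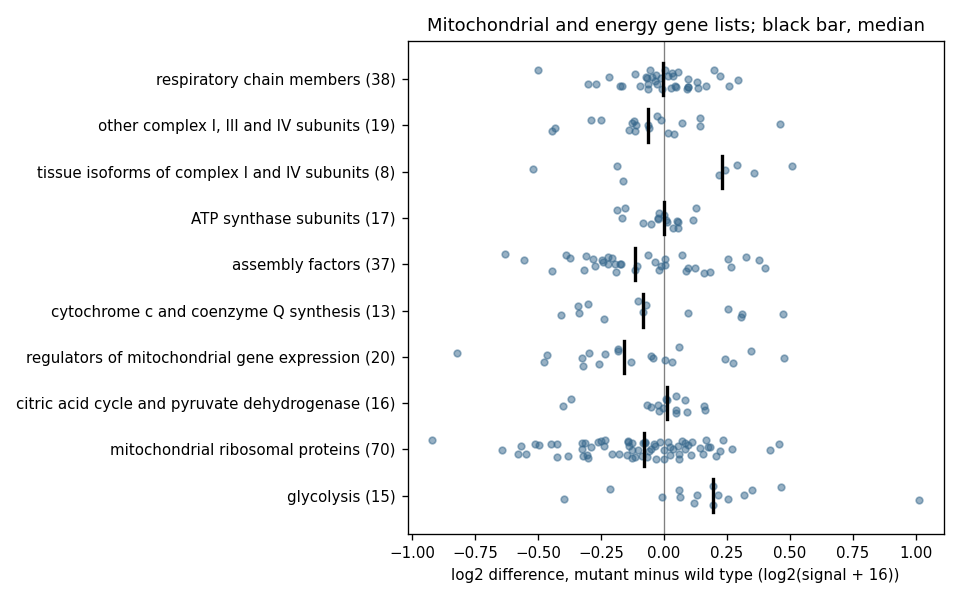
Log2 difference, mutant minus wild type, of each measured gene (points) in the respiratory chain list and 9 related lists, with each list's median as a black bar and the number of genes in brackets; vertical scatter within a list has no meaning. The respiratory chain (median -0.0021) and ATP synthase (median 0.0004) are centred near 0 and narrow, and glycolysis has a median of 0.19.

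In sorted tissue a subunit's signal depends on which cells were collected, and fewer cells of a type cannot be told apart from less RNA per cell. Some marker lists differed between the genotypes in mean log2 level, such as B cell markers by -2.44 and neutrophil markers by 1.87. The mean log2 level of the 38 subunits differed by -0.0075. Others, such as club and hematopoietic cell markers, had nearly the same mean level in both, although single markers went either way. Their log2 differences ran from -0.62 to 0.47 for club and from -0.99 to 1.06 for hematopoietic cell markers. The mean log2 level of 7 measured B cell markers was 9.59 in wild type and 7.15 in mutant, and that of 8 T and natural killer cell markers 10.63 and 8.64. All 7 B cell markers and 5 of the 8 others fell at a limma adjusted p under 0.05. Neutrophil markers (7 measured, 2 called higher) stood at 9.25 and 11.12, with the highest level, 11.82, in mutant replicate 2. Their summed signals ran from 10558 to 14575 in wild type and from 21602 to 52063 in mutant. Proliferation markers (11 measured, 1 called lower) stood at 9.77 and 8.82 and were lowest, at 8.48, in the same array; their summed signals ran from 16931 to 22731 and from 11020.0 to 13226. Fibroblast markers (14 measured, 1 called higher, Col1a1) stood at 11.09 and 11.74, and smooth muscle and pericyte markers (12 measured, 0 called) at 8.52 and 9.78. Hematopoietic markers (10) stood at 11.90 and 11.87, and Ptprc, which encodes CD45, was bright in both genotypes at 7716 ± 966 and 5767 ± 852 (SD, n = 3 each) despite the sort. Pecam1, which encodes CD31, read 2247 ± 506 and 2939 ± 247. Alveolar type 2 and club cell markers were bright in both, at 13.24 and 13.44 and at 12.51 and 12.52. Of cells rich in mitochondria, cardiomyocyte markers (10 measured, 6 above 0, 0 called) had summed signals of 722 to 1503 in wild type and 1586 to 2683 in mutant, and the defining gene Myh6 read 107 ± 6.27 and 162 ± 66.2. Brown adipocyte markers (6 measured, 4 above 0, 1 called lower, Cidec) had a median log2 difference of 0.098 with a range of -1.98 to 1.48, summed signals of 467 to 603 and 195 to 271, and a defining gene, Ucp1, at 63.6 ± 23.3 and 34.8 ± 7.76. The part of each of these in the subunits' signals was not tested.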

How the data were processed

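Amplified RNA was hybridised to Affymetrix Mouse Genome 430 2.0 arrays, and the authors deposited a linear intensity for each probe set. The submitters' processing notes name Expression Console 1.1; how probes were summarized is not given. After trimming 2% from each end, every array's mean intensity was 500.002, so the authors' values had been scaled, and a shift of all genes together would not be seen. Medians were 114.2, 112.2 and 112.6 in the wild-type arrays and 97.4, 111.9 and 105.6 in mutant, in replicate order, so each mutant median lay below each wild-type one. With each array centred on its median, 5 of the 38 subunits changed the sign of their difference. The ratio of the 3′ to the 5′ control probe set was 4.85 to 5.94 for Gapdh and 0.949 to 1.00 for Actb, and the genotypes overlapped in both. The part of such a 3′ bias in the disagreement between probe sets of a gene was not tested. The number of arrays limits the precision.

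Of 45101 probe sets, 64 controls were left out and 34945 had 1 gene symbol, 932 several and 9160 none in the platform annotation. Signals were turned to log2(signal + 16), and the probe set with the highest mean stood for each of 18193 genes. limma 3.58.1 (R 4.3.3; lmFit, eBayes, no covariate) compared 3 mutant with 3 wild-type arrays, with Benjamini-Hochberg adjustment over all genes. The fit was tested on simulated data. All adjusted p-values and 95% intervals, which are not adjusted for the number of genes, come from this fit. Lists are described by counts and medians, with no test.

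Values in every array are given for members called, those with the greatest rise, greatest fall and smallest p in each complex, and those whose probe sets differ in sign. From each other list come called genes and the 2 with the smallest p, and from the isoforms all. Ndufa1 was added as a member without overlap, and Uqcrfs1 after its values were seen. The members and lists were chosen with earlier results of these data known.

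Other settings tried were a minimum mean signal of 100, the mean or the dimmest of a gene's probe sets, offsets of 1 and 64, quantile normalization, median centring, array weights, a trended robust prior, a block for replicate numbers, adjusted p thresholds of 0.01 and 0.1, and leaving out each array.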

Additional observations from a re-analysis of the deposited data

How the results depend on the processing

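The count of respiratory chain subunits called stayed at 0 under all 16 other settings and at adjusted p thresholds of 0.01 and 0.1. The smallest limma adjusted p was 0.244, for Ndufs4 with the mean of probe sets (-0.56). At an unadjusted p under 0.05 the count was 1 with an offset of 64, with the mean of probe sets and with the trended robust prior. Over all 18193 genes it was 2870, 2674 and 2843 in these settings. In the other settings 0 subunits reached it. The medians of the 38 genes ran from -0.055 to 0.086. Of the 38, 15 kept their sign in all 16 settings and 23 changed it in at least 1; the differences of those 23, as reported, were at most 0.26 in size. With quantile normalization Ndufa5 was -0.026. With the mean of probe sets, Ndufa5 was -0.14, Ndufa7 -0.14, Ndufa10 -0.13, Ndufb2 0.039, Ndufb8 -0.16, Ndufb9 -0.030 and Nrf1 -0.25, and 3 subunits had no overlap between the genotypes. With the dimmest probe set, Ndufa5 was -0.29, Ndufa7 -0.44, Ndufa10 -0.34, Ndufb2 0.50, Ndufb8 -0.34, Ndufb9 -0.42, Cox5b -0.020, Polg 0.31, Nrf1 -0.56, Ppargc1a -0.11, Ndufa3 0.38, Uqcr10 0.55 and Ogdh 0.24. Each of these follows from another probe set standing for the gene. When each array was left out in turn, the range was -0.028 to 0.072 for Ndufa5, -0.019 to 0.17 for Ndufa10, -0.32 to 0.020 for Ndufb2, -0.063 to 0.11 for Ndufb8, -0.053 to 0.11 for Ndufs8, -0.066 to 0.23 for Sdhd, -0.031 to 0.22 for Uqcrc1 and -0.032 to 0.081 for Cox5b. It was -0.016 to 0.12 for the median of complex II and 5 to 14 for the subunits without overlap, the latter count being 14 (36.8%, against 29.3% of all genes) without mutant replicate 1, 9 (23.7%, against 33.2%) without mutant replicate 2 and 9 (against 31.8%) without mutant replicate 3. With 1 array fewer, less is needed to avoid overlap.

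Over all genes, 168 were called, against 33 with an offset of 1, 265 with an offset of 64, 308 of the genes with a mean signal of at least 100, 98 with the dimmest probe set and 438 with the trended robust prior, and between 2 (wild-type replicate 2 left out) and 76 (mutant replicate 3 left out) when 1 array was dropped; the cause was not tested. With the replicate block the count called by limma was 0, and 2611 genes had an unadjusted p under 0.05. Deviations of same-numbered arrays from their group means correlated at 0.073, 0.048 and 0.032, and each wild-type array correlated best with its own number. Deviations from a mean of 3 arrays are tied to each other, so these values cannot decide if same-numbered samples were paired. The labels give only a number. With 3 arrays per genotype, the 95% interval of the difference reached beyond a log2 of 0.5 for all but 20 of the 38 subunits.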
